A study of Mus musculus with 21 samples.

Results

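Collagen genes were defined by symbol, as every row of the expression table named Col, a number, the letter a and a second number. Of the 53738 gene symbols in the table, 44 met this rule, and 17 of these 44 averaged 1 TPM or more across the 21 libraries. TPM is a measure of transcript abundance that is corrected for transcript length and scaled to a common total, so levels can be set side by side between genes. The libraries came from bulk quadriceps muscle of adult male wild-type C57/Bl6 mice, 3 in each of 7 groups. Sedentary mice did no exercise. Untrained mice ran to exhaustion on a treadmill without the wheel training, and trained mice ran to exhaustion after 12 weeks of voluntary wheel running. Muscle was taken either directly (0 h) or 6 h or 72 h after the run. All exercised groups share the same sedentary controls, and no group was trained and not run, so training and the run cannot be told apart in the comparison of trained with sedentary muscle.

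Collagens are secreted proteins of the extracellular matrix whose chains wind into triple helices. In skeletal muscle, types I and III form the main fibrils of the connective tissue around fibres and bundles, type V starts fibril assembly, type VI forms beaded filaments close to the fibre surface, and type IV forms the sheet of the basement membrane around fibres and capillaries. Most fibrillar collagen of muscle is made by fibroblasts and fibro-adipogenic progenitors rather than by the fibres. In bulk tissue, fewer cells of a type and less RNA per cell cannot be told apart.

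The values stood as follows before any comparison. Replicate 1 of the untrained and of the trained 0 h group had the same value for every gene, which leaves 20 distinct libraries, so the 0 h results are also given without that library. It is counted in both groups in the spread that all comparisons share, so results at 6 h and 72 h also depend on it. Markers of the labelled tissue were present: Ckm, the muscle creatine kinase, averaged 16886 TPM, and Dcn, the decorin gene of fibroblasts, averaged 212 TPM. Neutrophil markers were near 0, with Ly6g at 0 in 19 of 21 columns. The depth of the libraries is unknown, because TPM values keep no read counts, and nothing in the labels says that the libraries of a group came from separate litters or days, so p-values measure the spread between these libraries.

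The bases just upstream of the annotated gene are shown for 4 of the 7 genes called lower in trained 6 h against sedentary muscle. They are RefSeq promoter windows, matched once and without mismatch to GRCm39 and limited to the bases outside the annotated gene. The stretches therefore do not hold the annotated start. Col1a1 had no window in the RefSeq table. The windows of Col6a1 and Col15a1, and a further window of Col6a2, lay inside the gene. Capitals mark 4 motifs searched on both strands. These are CCAAT (the CCAAT box), TATAAA (the TATA box), GGGCGG (the GC box, which reads CCGCCC on the other strand) and TGAGTCA (the AP-1 site) with its reverse complement. They do not overlap one another here. Col3a1 is at chr1:45350448-45350697 on the plus strand, Col5a1 at chr2:27776187-27776396 on the plus strand, Col5a3 at chr9:20726419-20726613 on the minus strand, and Col6a2 at chr10:76459550-76459714 on the minus strand.
Col3a1: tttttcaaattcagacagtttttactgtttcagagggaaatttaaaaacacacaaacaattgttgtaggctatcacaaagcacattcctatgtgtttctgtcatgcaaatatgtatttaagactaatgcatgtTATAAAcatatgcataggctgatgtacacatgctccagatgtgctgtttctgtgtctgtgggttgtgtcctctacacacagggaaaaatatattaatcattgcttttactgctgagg
Col5a1: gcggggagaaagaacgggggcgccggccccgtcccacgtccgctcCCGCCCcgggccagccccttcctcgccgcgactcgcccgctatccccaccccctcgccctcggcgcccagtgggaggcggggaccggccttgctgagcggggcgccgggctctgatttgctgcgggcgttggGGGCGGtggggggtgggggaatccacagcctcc
Col5a3: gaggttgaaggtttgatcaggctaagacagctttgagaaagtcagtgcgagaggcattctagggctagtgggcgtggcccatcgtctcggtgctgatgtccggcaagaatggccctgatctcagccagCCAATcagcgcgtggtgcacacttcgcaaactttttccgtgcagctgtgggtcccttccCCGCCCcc
Col6a2: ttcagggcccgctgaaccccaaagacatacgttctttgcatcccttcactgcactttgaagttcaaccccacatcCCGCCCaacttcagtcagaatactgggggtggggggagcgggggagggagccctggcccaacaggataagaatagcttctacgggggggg
The Col3a1 stretch held a TATAAA and had 35.2% G and C, whereas the Col5a1 stretch held 2 GGGCGG and had 77.6%. The Col5a3 stretch held a CCAAT and a GGGCGG, and the Col6a2 stretch held a GGGCGG. The RefSeq table held windows of 300 bases, from 250 before to 50 after the start, for 12 of the 17 genes, 14 windows in all. Of these 14 windows, 9 held GGGCGG, against 35.7% of all 32851 windows in the table. The 14 are not separate stretches. The windows of Col4a1 and Col4a2 overlap and share a GGGCGG, and the windows of Col6a2 overlap each other. CCAAT was in 6 of 14 windows against 37.4%, TATAAA in 1 against 13.6%, and an AP-1 sequence in 1, that of Col6a1, against 5.20%. A match of letters is a description and not a binding site.

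Collagen transcripts of resting and exercised quadriceps were dominated by a few chains. The highest means over the 21 libraries were those of Col3a1 (25.1 TPM), Col1a2 (18.8 TPM), Col4a1 (16.4 TPM) and Col4a2 (11.0 TPM). The type VI chains Col6a1, Col6a2 and Col6a3 followed at 9.78, 9.02 and 7.65 TPM, with Col1a1 among them at 9.03 TPM. Next were Col7a1, the anchoring fibril collagen, at 5.51 TPM, Col15a1, a multiplexin of the outer basement membrane, at 4.22 TPM, and the type V chains Col5a1, Col5a3 and Col5a2 at 3.59, 3.21 and 3.00 TPM. Col22a1, a collagen of the muscle-tendon junction, averaged 1.78 TPM, Col18a1, the source of endostatin, 1.66 TPM, and the fibril-associated Col14a1 1.5 TPM. The limit of 1 TPM fell between Col12a1 at 1.20 TPM and Col16a1 at 0.958 TPM. The other 26 genes ran from Col8a1 at 0.733 TPM down to Col10a1, the collagen of hypertrophic cartilage, which was listed at 0 in 9 of 21 columns. By family, 6 of 11 fibrillar genes, 2 of 6 basement membrane network genes, 3 of 6 beaded filament genes, 3 of 9 fibril-associated genes, both multiplexins and the single anchoring fibril gene reached 1 TPM. None of the 3 short chain, 4 transmembrane and 2 other genes did.

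**Figure D1:**
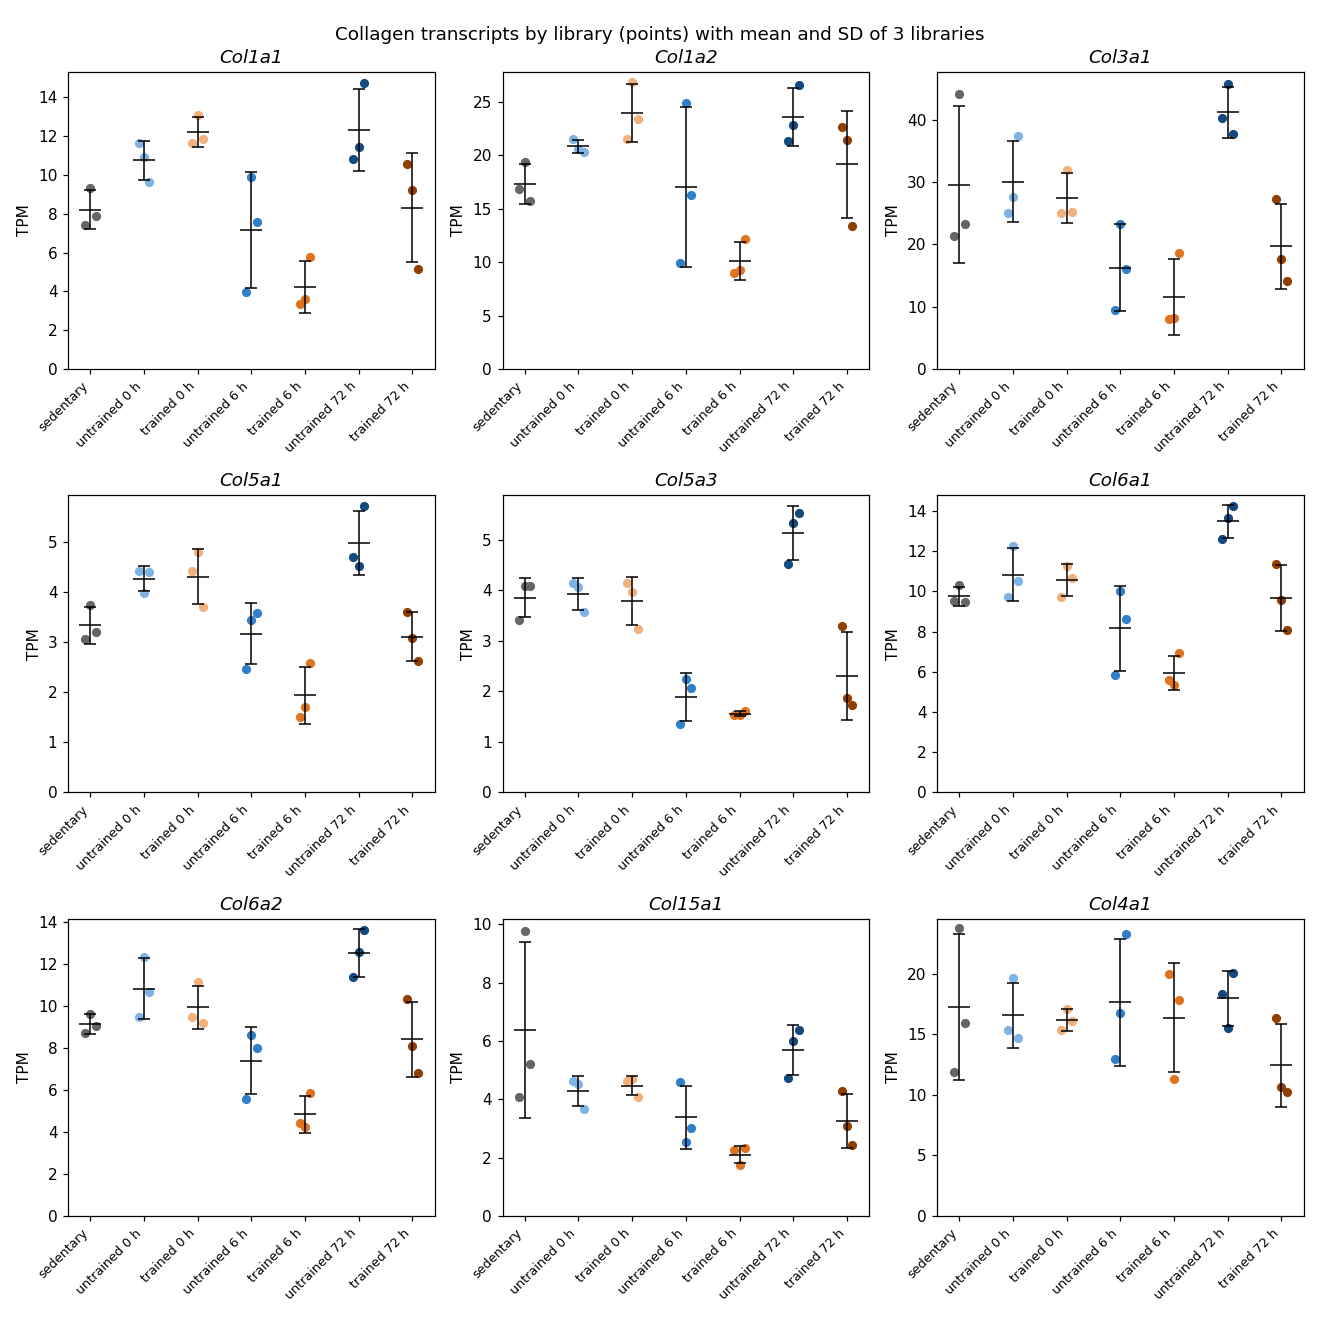
TPM (vertical axes, from 0) of 9 collagen genes in the 7 groups, with a point for each library and bars for mean and SD of 3 libraries. All 3 trained 6 h points of Col1a1, Col1a2, Col3a1, Col5a1, Col5a3, Col6a1, Col6a2 and Col15a1 lie below the sedentary points, and those of Col4a1 do not.

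At 6 h after the run, 4 of 6 tested fibrillar chains and 2 of 3 type VI chains were called lower in trained than in sedentary muscle, and neither type IV chain was called. Of the 17 tested collagens, 7 were called lower and 0 higher, by limma on log2(TPM + 0.5) with Benjamini-Hochberg adjustment over all 11819 tested genes, where a call needed a fold of at least 1.5 and an adjusted p below 0.05. Over all tested genes, 3.85% were called in this comparison and 1.44% were called lower. The median log2 fold change of the 17 collagens was -0.67, beside -0.01 over all tested genes. In 12 of 17 every trained 6 h library lay below every sedentary library, which held for 15.0% of all tested genes. The called genes were 4 fibrillar (Col3a1, Col1a1, Col5a1, Col5a3), 2 beaded filament (Col6a1, Col6a2) and 1 multiplexin (Col15a1).

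Among the fibril-forming chains, Col1a1, which encodes the alpha 1 chain of type I collagen (chr11:94827050-94843868, GRCm39), had 3.34, 3.59 and 5.77 TPM in trained 6 h muscle against 7.41, 9.33 and 7.87 TPM in sedentary muscle. The groups did not overlap, and the log2 fold change was -0.91 (SE 0.278, adjusted p = 0.0480). Its partner Col1a2 (chr6:4504814-4541555) had 8.95, 9.22 and 12.2 TPM against 16.9, 19.3 and 15.7 TPM. These groups did not overlap either, but the difference of -0.75 (SE 0.246) missed the threshold at an adjusted p of 0.0641. Col3a1, the type III chain (chr1:45350698-45395840), had 7.97, 8.15 and 18.6 TPM against 21.3, 44.1 and 23.3 TPM, a log2 fold change of -1.35 (SE 0.362, adjusted p = 0.0258). Trained replicate 3 was the highest of its group for Col1a1, Col1a2 and Col3a1, and sedentary replicate 2 was the highest of its group for all 3 genes.

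The type V chains, which control the diameter of fibrils, had 2 of 3 genes called lower. Col5a3 (chr9:20681337-20726418) had 1.53, 1.53 and 1.61 TPM in trained 6 h muscle and 3.41, 4.08 and 4.09 TPM in sedentary muscle. The log2 fold change was -1.08 (SE 0.175, adjusted p = 0.00103). Col5a1 (chr2:27776397-27929526) had 1.51, 1.72 and 2.60 TPM against 3.06, 3.76 and 3.20 TPM, a log2 fold change of -0.67 (SE 0.160, adjusted p = 0.0129). Neither gene overlapped between the groups. Col5a2 averaged 1.96 ± 0.386 TPM against 2.97 ± 0.265 TPM (SD, n = 3), and its difference of -0.51 was not called (adjusted p = 0.0648).

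For the beaded filaments of type VI, Col6a1 (chr10:76543440-76562283) had 5.61, 5.36 and 6.94 TPM in trained 6 h muscle against 9.50, 10.3 and 9.47 TPM in sedentary muscle, a log2 fold change of -0.67 (SE 0.156, adjusted p = 0.0115). Col6a2 (chr10:76429660-76459549) had 4.43, 4.26 and 5.86 TPM against 8.70, 9.65 and 9.04 TPM, a log2 fold change of -0.86 (SE 0.164, adjusted p = 0.00320). The sedentary values of both genes were close together and above every trained 6 h value. Col6a3 (chr1:90693645-90771780), whose long chain joins the other two in the same molecule, had 6.48, 4.89 and 2.72 TPM against 7.21, 9.52 and 7.89 TPM. Its libraries did not overlap, but its spread was wide and the difference of -0.81 (SE 0.411) was not called (adjusted p = 0.245).

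Col15a1 (chr4:47207582-47313179), which bridges the basement membrane to the fibrils, had 2.25, 1.76 and 2.31 TPM in trained 6 h muscle against 4.09, 9.78 and 5.21 TPM in sedentary muscle. The log2 fold change was -1.32 (SE 0.253, adjusted p = 0.00342), and sedentary replicate 2 was high. The related Col18a1 averaged 1.31 ± 0.188 TPM against 1.68 ± 0.208 TPM (SD, n = 3), with a difference of -0.27 that was not called (adjusted p = 0.191). Leaving out sedentary replicate 2 reduced the 7 calls to 4 (Col15a1, Col5a3, Col6a1, Col6a2), as did leaving out trained 6 h replicate 1. With only these 2 groups in the model, 3 genes were called (Col5a3, Col6a1, Col6a2).

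The type IV chains of the basement membrane had values close to the sedentary ones. Col4a1 (chr8:11248423-11362826) had 20.0, 11.3 and 17.9 TPM in trained 6 h muscle and 11.9, 23.8 and 16.0 TPM in sedentary muscle. The groups overlapped throughout, and the log2 fold change was -0.06 with a 95% interval from -0.61 to 0.50. Col4a2 (chr8:11362471-11499287) had 11.5, 9.71 and 11.9 TPM against 8.86, 11.9 and 13.8 TPM, a log2 fold change of -0.04 with an interval from -0.46 to 0.38. Col7a1 had 6.17, 6.75 and 8.22 TPM against 5.17, 4.75 and 5.95 TPM. Every trained 6 h library of Col7a1 was above every sedentary library, but the difference of 0.38 was not called (adjusted p = 0.384). The remaining genes, Col12a1, Col14a1 and Col22a1, had log2 fold changes below 0 that were not called. Among the genes under 1 TPM, which were not tested, Col6a6 averaged 0.358 ± 0.102 TPM in trained 6 h muscle and 0.767 ± 0.0685 TPM in sedentary muscle, and Col16a1 0.594 ± 0.142 against 0.956 ± 0.309 TPM (SD, n = 3).

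**Figure D2:**
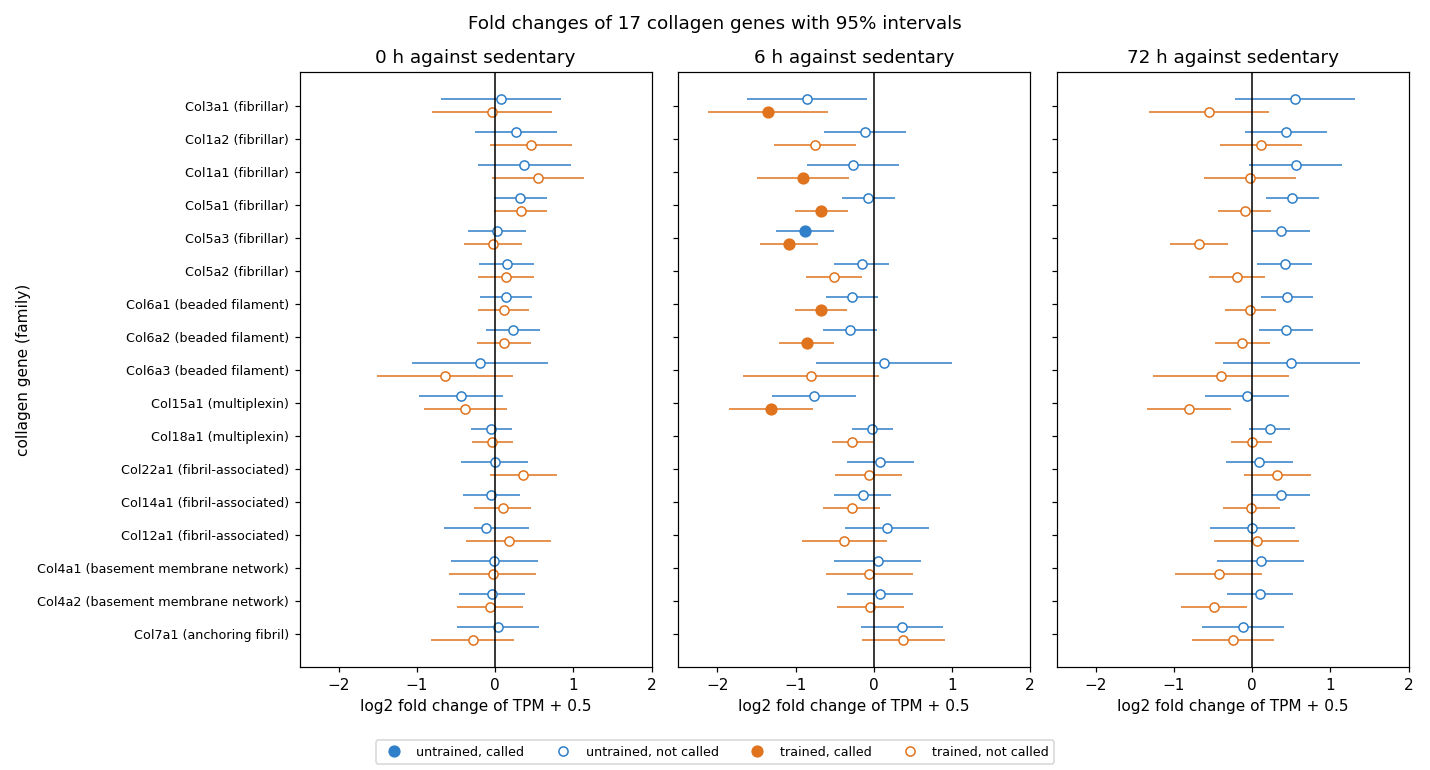
Log2 fold change of TPM + 0.5 against sedentary muscle (horizontal axes) for the 17 collagen genes, with 95% intervals, in untrained (blue) and trained (orange) muscle, with 1 panel per time. Filled points were called, which is 7 genes in trained and 1 in untrained muscle at 6 h, and open points were not.

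In untrained muscle at the same time, 1 of 17 collagens was called lower. It was Col5a3, with 1.35, 2.25 and 2.08 TPM, all below the sedentary libraries (log2 fold change -0.88, SE 0.175, adjusted p = 0.00386). Over all tested genes, 4.42% were called and 0.888% were called lower. Every library was lower than all sedentary ones for Col5a3 and Col6a2, 2 of 17 genes, against 8.72% of all tested genes. The median log2 fold change of the collagens was -0.11, beside 0.01 over all genes. Col15a1, with 4.60, 2.53 and 3.03 TPM, differed by -0.77 (SE 0.253) and was not called (adjusted p = 0.0707). It was called when untrained 6 h replicate 1 or sedentary replicate 1 was left out, which raised the count to 2. Col3a1, with 9.39, 23.3 and 16.0 TPM, differed by -0.86 (SE 0.362, adjusted p = 0.171). Col7a1 had 7.54, 6.40 and 6.82 TPM, above every sedentary library as in trained 6 h muscle, and its difference of 0.36 was not called. Col6a6 and Col16a1, which were not tested, averaged 0.462 ± 0.0718 and 1.42 ± 0.251 TPM (SD, n = 3), against 0.767 and 0.956 TPM in sedentary muscle.

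The untrained 6 h libraries stood far apart. For Col1a1 they had 3.98, 9.89 and 7.60 TPM, and for Col1a2 9.91, 24.9 and 16.3 TPM. Replicate 1 was within the trained 6 h range for both genes and replicate 2 was above every sedentary library. Col5a1 had 2.48, 3.46 and 3.60 TPM, Col6a1 5.86, 10.002 and 8.62 TPM, and Col6a2 5.58, 8.61 and 8.0004 TPM. Replicate 1 was the lowest for all of these. Col6a3 had 7.23, 10.4 and 9.59 TPM, Col4a1 12.9, 16.7 and 23.3 TPM, and Col4a2 8.27, 14.2 and 14.7 TPM, within or near the sedentary range.

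The 10 fibro-adipogenic markers summed to 353, 744 and 554 TPM in the 3 untrained 6 h libraries, in the same order as Col1a1, and the 6 tenocyte markers to 33.9, 127 and 64.4 TPM. The sedentary libraries held 485 to 498 TPM of the fibro-adipogenic markers, and the trained 6 h libraries 451 to 504 TPM. In trained 6 h muscle, 1 of the 10 fibro-adipogenic markers was called lower against sedentary muscle (Clec3b, log2 fold change -0.72, adjusted p = 0.0194), 9 of the 10 were below 0, and the median over the 10 was -0.13, beside -0.01 over all genes. Dcn, the most abundant of them and the one above 0, differed by 0.04 (adjusted p = 0.951). The tenocyte markers summed to 27.3 to 40.6 TPM in trained 6 h muscle and 41.1 to 60.1 TPM in sedentary muscle, without overlap. All 5 tested tenocyte markers were below 0 with a median of -0.66, near the collagen median, and 0 of 5 were called. Endothelial markers summed to 85.9 to 113 TPM against 87.7 to 108 TPM, pericyte and smooth muscle markers to 98.6 to 113 against 104 to 124 TPM, Schwann cell markers to 16.4 to 28.8 against 21.6 to 34.9 TPM, and macrophage markers to 20.2 to 28.5 against 23.9 to 26.9 TPM. Of the 7 tested macrophage markers, 2 were called higher in untrained 6 h muscle against sedentary muscle, Cd68 (1.62) and Csf1r (0.61). Of the 7, 1 was below 0, and the median was 0.42. Of the 8 endothelial markers, Cldn5, a tight junction gene, was called lower (-1.04), 5 were below 0, and the median was -0.19. Over all tested genes, 4.42% were called in that comparison. In untrained 6 h muscle the macrophage markers summed to 25.3 to 53.8 TPM and the endothelial markers to 79.1 to 91.6 TPM. Both overlapped the sedentary range. The part of these cell types in the collagen differences was not tested.

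Trained and untrained muscle were then compared directly at 6 h. Without a trained group that was not run, a standing difference due to training and a changed response to the run cannot be told apart here. Col5a1 was called lower in trained muscle, 1 of 17 genes, with a log2 difference of -0.60 (SE 0.160, adjusted p = 0.0430). The trained libraries had 1.51, 1.72 and 2.60 TPM and the untrained ones 2.48, 3.46 and 3.60 TPM, so the groups overlapped at 1 library each. The call was lost with a pseudocount of 1, under both other scalings and with the replicate block. Over all tested genes 2.01% were called, and 1.46% were called lower. The median collagen difference was -0.40, beside -0.04 over all genes, and 16 of 17 collagens were below 0, as were 58.3% of all tested genes. Every trained library was below every untrained one for Col6a3, Col12a1 and Col15a1, 3 of 17 genes, against 11.5% of all tested genes. Neither Col3a1 (-0.49, adjusted p = 0.518) nor Col5a3 (-0.20, adjusted p = 0.612) was called. Without untrained 6 h replicate 1 the count rose to 5 (Col1a1, Col1a2, Col5a1, Col6a1, Col6a2), and without trained 6 h replicate 3 to 2 (Col5a1, Col6a2). It was 0 without untrained 6 h replicate 2 or 3 or trained 6 h replicate 1 or 2. Among all tested genes 66 were called higher and 172 lower in trained muscle, but 130 higher and 140 lower after rescaling without mitochondrial-genome genes and the 10 most abundant genes. Cd68, a macrophage marker, was also lower in trained muscle (-1.47, adjusted p = 0.000473), and the macrophage list summed to 20.2 to 28.5 TPM in trained and 25.3 to 53.8 TPM in untrained muscle. All 5 tested tenocyte markers (median -0.77) and 8 of 10 fibro-adipogenic markers (median -0.20) were below 0, and none was called. The endothelial list had 0 of 8 markers below 0 (median 0.12). The pericyte and smooth muscle list had 1 of 8 (median 0.08) and the Schwann cell list 1 of 3 tested (median 0.05), again with none called. The part of these cell types in the collagen values was not tested.

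At 72 h, 15 of 17 collagens had a lower fitted level in trained than in untrained muscle, a direction that 69.5% of all tested genes shared, while no collagen was called by limma in either group against sedentary muscle. In untrained muscle, 4 of 17 had an unadjusted p below 0.05 (Col5a1, Col5a2, Col6a1, Col6a2), where 5.77% of all tested genes did and 0.00846% were called. In 9 of 17 every untrained 72 h library was above every sedentary library, which held for 9.04% of all tested genes, and the median log2 fold change was 0.37 beside 0.04 over all genes. Col6a1 had 12.6, 13.6 and 14.2 TPM and Col6a2 had 11.4, 12.6 and 13.6 TPM, with little spread. Col1a1 had 10.8, 11.4 and 14.7 TPM, Col1a2 21.3, 22.8 and 26.6 TPM, and Col3a1 40.3, 45.7 and 37.7 TPM. Col1a1 and Col1a2 were above the sedentary range in every library, whereas Col3a1 overlapped it through sedentary replicate 2. Col6a3 had 11.1, 12.8 and 11.4 TPM, and Col5a1 had 4.72, 4.52 and 5.72 TPM, above the sedentary range as well. Macrophage markers summed to 36.8 to 38.1 TPM in these libraries against 23.9 to 26.9 TPM in sedentary muscle, and Cd68 was called higher (1.53, adjusted p = 0.0120). Fibro-adipogenic markers summed to 510 to 606 TPM against 485 to 498 TPM without overlap. All 10 of them (median 0.26) and all 5 tested tenocyte markers (median 0.26) were above 0, and none was called. The part of these cell types in the collagen values was not tested.

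In trained 72 h muscle, 3 of 17 collagens had an unadjusted p below 0.05 (Col4a2, Col5a3, Col15a1), all lower than in sedentary muscle. Over all tested genes, 11.7% did so and 0.169% were called. The median log2 fold change was -0.13, beside -0.04 over all genes. Col5a3 had 3.31, 1.86 and 1.73 TPM, all below the sedentary libraries, with a log2 fold change of -0.68 and an adjusted p of 0.106. Without trained 72 h replicate 1 it was called. Col15a1 had 4.28, 3.07 and 2.45 TPM, and Col4a2 had 9.42, 8.22 and 6.42 TPM. Both overlapped the sedentary libraries through replicate 1.

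Compared directly at 72 h, 1 of 17 collagens was called lower in trained than in untrained muscle. It was again Col5a3, with 3.31, 1.86 and 1.73 TPM in trained and 4.53, 5.33 and 5.54 TPM in untrained muscle (log2 difference -1.05, SE 0.175, adjusted p = 0.0143). Over all tested genes, 0.245% were called and 0.186% were called lower. Every trained library was below every untrained one in 11 of 17 collagens, against 24.6% of all tested genes, and the median collagen difference was -0.56 beside -0.08 over all genes. An unadjusted p below 0.05 was reached by 10 of 17 collagens (Col3a1, the 3 type V and 3 type VI chains, Col4a2, Col14a1 and Col15a1) and by 15.0% of all tested genes. Col3a1 had 27.4, 17.6 and 14.1 TPM in trained muscle against 40.3, 45.7 and 37.7 TPM, with a difference of -1.09 (SE 0.362) that was not called (adjusted p = 0.180). Col4a1 had 16.4, 10.7 and 10.3 TPM against 18.3, 15.5 and 20.1 TPM (-0.54, adjusted p = 0.352), and Col4a2 had 12.8, 12.6 and 11.3 TPM in untrained muscle (-0.59, adjusted p = 0.184). Trained replicate 1 was the highest of its group for Col1a1, Col3a1, Col5a1, Col5a3, Col6a1 and Col6a2. The Col5a3 call was lost when untrained replicate 2 or 3 or trained replicate 2 or 3 was left out. Fibro-adipogenic markers summed to 512 to 577 TPM in trained and 510 to 606 TPM in untrained 72 h muscle, tenocyte markers to 39.5 to 81.8 against 58.5 to 63.5 TPM, and endothelial markers to 83.7 to 103 against 95.3 to 98.4 TPM. Gene by gene, 9 of the 10 fibro-adipogenic markers (median log2 difference -0.20) and 4 of the 5 tested tenocyte markers (median -0.14) were below 0, the direction of the collagens, and none of them was called. Cd68 was lower in trained 72 h muscle (-1.24, adjusted p = 0.0125). Whether these cell types bear on the collagen values was not tested.

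Directly after the run, at 0 h, no collagen was called in untrained or in trained muscle, and 0 of 17 had an unadjusted p below 0.05 in either. Over all tested genes 3.59% were called in untrained 0 h muscle and 3.74% in trained 0 h muscle, and 24.2% and 27.2% had an unadjusted p below 0.05. The median collagen log2 fold change was 0.02 in untrained muscle, where the median of all genes was 0.10, and 0.10 in trained muscle, where it was 0.13. After rescaling without mitochondrial-genome genes and the 10 most abundant genes, the all-gene medians moved to -0.05 and -0.04 and the collagen medians to -0.14 and -0.08, so the sign of the collagen median depends on the scaling. Between trained and untrained muscle 0 of 17 collagens and 0% of all tested genes were called, where 0 collagens and 1.21% of all tested genes had an unadjusted p below 0.05. Without the library that both 0 h groups share, again 0 collagens were called in the 3 comparisons, and 1 had an unadjusted p below 0.05 (Col22a1, trained against untrained, 0.55, unadjusted p = 0.0459 by limma).

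Of the marker genes, Kdr, an endothelial receptor gene, was called lower at 0 h in untrained (-0.66) and trained muscle (-0.59), Pdgfrb, a pericyte gene, lower in untrained muscle (-0.65), and Myh1, a fast myosin gene, higher in trained muscle (0.64). In each 0 h group, 5 of 8 endothelial and 4 of 8 pericyte and smooth muscle markers were below 0. Endothelial markers summed to 91.9 to 107 TPM in untrained and 93.1 to 107 TPM in trained 0 h muscle, against 87.7 to 108 TPM in sedentary muscle. Pericyte and smooth muscle markers summed to 111 to 130 and 120 to 135 TPM against 104 to 124 TPM. The part of these cell types in the collagen values was not tested. The library in both groups had 11.7 TPM of Col1a1, 21.5 of Col1a2, 25.0 of Col3a1, 4.43 of Col5a1, 4.15 of Col5a3, 9.71 of Col6a1, 9.47 of Col6a2, 4.62 of Col15a1, 15.4 of Col4a1 and 10.4 of Col4a2. For Col1a1 the other untrained 0 h libraries had 10.9 and 9.66 TPM and the other trained 0 h libraries 13.1 and 11.8 TPM, all above the sedentary range. Col1a2 had 20.6 and 20.3 TPM in the other untrained libraries and 26.9 and 23.4 TPM in the other trained ones, again above it. In each 0 h group, every library was above every sedentary library for 3 of 17 collagens, with the shared library counted in both groups. The share of all tested genes that did so was not computed, so this count is a description only. In each group 8 of 17 collagens had a log2 fold change below 0, as did 29.3% of all tested genes in untrained and 23.7% in trained 0 h muscle. Col5a1 had 3.99 and 4.40 TPM in untrained and 4.81 and 3.71 TPM in trained muscle. Col3a1 had 27.7 and 37.4 TPM in untrained and 32.0 and 25.1 TPM in trained muscle, within the sedentary range.
Col5a3 had 4.07 and 3.57 TPM in untrained and 3.96 and 3.24 TPM in trained muscle, and Col15a1 had 4.52 and 3.68 TPM and 4.70 and 4.09 TPM. Col6a1 had 12.3 and 10.5 TPM and 11.3 and 10.7 TPM, and Col6a2 had 12.4 and 10.7 TPM and 11.1 and 9.22 TPM. These were level with or a little above sedentary muscle for type VI. Col4a1 had 19.7 and 14.7 TPM in untrained and 17.1 and 16.1 TPM in trained muscle, and Col4a2 had 12.8 and 9.82 TPM and 12.3 and 9.89 TPM, inside the sedentary range.

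Col6a3 departed from the other type VI chains in single libraries. It had 3.52 TPM in the shared 0 h library, 9.20 and 10.6 TPM in the other untrained 0 h libraries, and 9.73 and 3.67 TPM in the other trained 0 h libraries. In trained 72 h muscle it had 8.62, 6.87 and 3.70 TPM. The 0 h libraries with 3.52 and 3.67 TPM of Col6a3 had 9.71 and 10.7 TPM of Col6a1, within or above the sedentary values of 9.47 to 10.3 TPM.

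The make-up of the collagen transcripts followed these differences. The 44 genes summed to 122, 178 and 138 TPM in sedentary muscle, to 90.9, 80.02 and 110 TPM in trained 6 h muscle and to 90.7, 153 and 135 TPM in untrained 6 h muscle. At 72 h the sums were 177, 187 and 192 TPM in untrained and 151, 123 and 91.5 TPM in trained muscle. Col4a1 and Col4a2 together made 19.5 ± 2.30% of the sum in sedentary muscle and 29.3 ± 4.58% in trained 6 h muscle, with 23.9 ± 3.98% in untrained 6 h muscle and group means of 16.3% to 18.1% at 0 h and 72 h (SD, n = 3). Types I and III (Col1a1, Col1a2, Col3a1) made 37.4 ± 3.47% in sedentary, 27.3 ± 5.57% in trained 6 h and 31.0 ± 6.31% in untrained 6 h muscle. These shares use the same values as the comparisons above and are given without a test. The ratio of Col4a1 to Col1a1 TPM was 2.06 ± 0.472 in sedentary, 4.07 ± 1.65 in trained 6 h and 2.67 ± 0.853 in untrained 6 h muscle (SD, n = 3). Trained 6 h replicate 1, at 5.98, was the highest. The untrained 6 h libraries had 3.26, 1.69 and 3.07, and overlapped the trained 6 h ones, of which the lowest was 3.10.

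**Figure D3:**
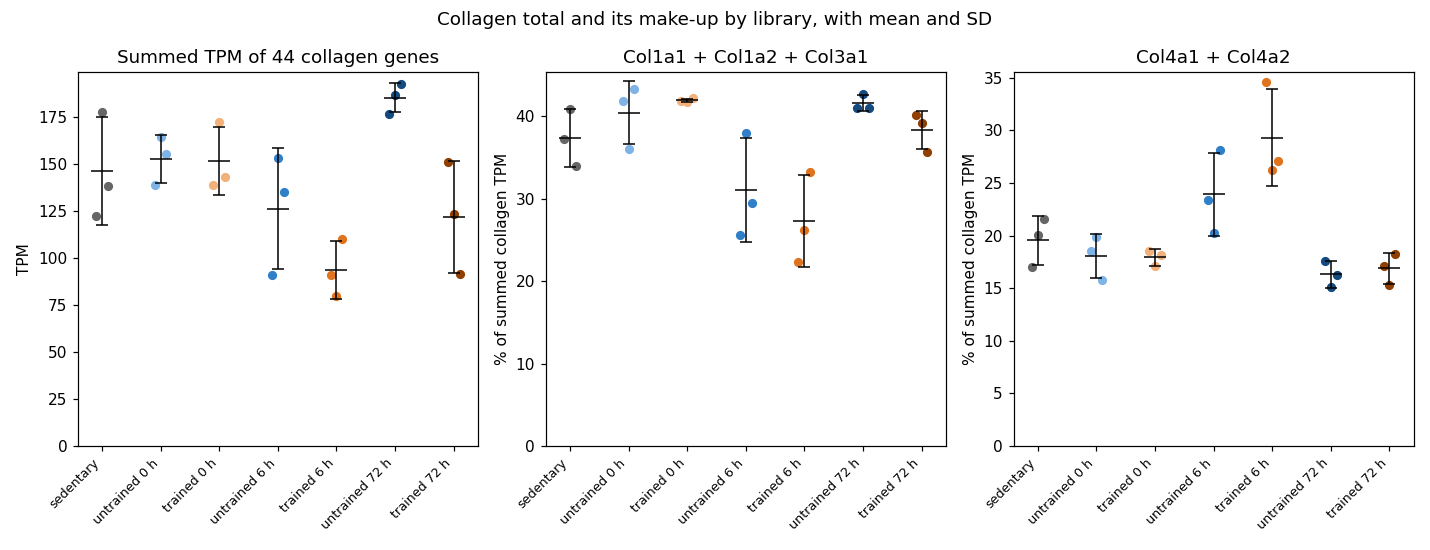
Summed TPM of the 44 collagen genes (left) and the percentage of that sum from Col1a1, Col1a2 and Col3a1 (middle) and from Col4a1 and Col4a2 (right), with a point per library and bars for mean and SD. The trained 6 h libraries sum to 80.02 to 110 TPM, below the sedentary libraries, and have 26.3 to 34.6% from type IV, above every sedentary library.

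The correlation between chains was computed over the 20 distinct libraries, which include the differences between groups. Pearson's r of log2(TPM + 0.5) was 0.979 for Col1a1 with Col1a2, 0.984 for Col6a1 with Col6a2 and 0.780 for Col4a1 with Col4a2. Col6a3 had r of 0.551 with Col6a1 and 0.574 with Col6a2. Over all 136 pairs of the 17 genes the median r was 0.54, with a range from -0.36 to 0.98. Col7a1 had the lowest median r with the other collagens, -0.27. The genes most like Col1a1 among all tested genes were Col1a2, Loxl2, a cross-linking enzyme (r = 0.953), Col6a1 (0.946), Col5a1 (0.942) and Col5a2 (0.941). For Col6a1 they were Col6a2, Col5a2 (0.956), Col1a1, Folr2, the folate receptor beta of resident macrophages (0.936), and Loxl2 (0.935). For Col4a1 they were Eng, the endothelial TGF-beta co-receptor endoglin (0.814), Casp8 (0.814), Ptpmt1 (0.800), Col4a2 and Efr3b (0.760). These values are descriptions over 20 libraries that share groups and scaling.

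**Figure D4:**
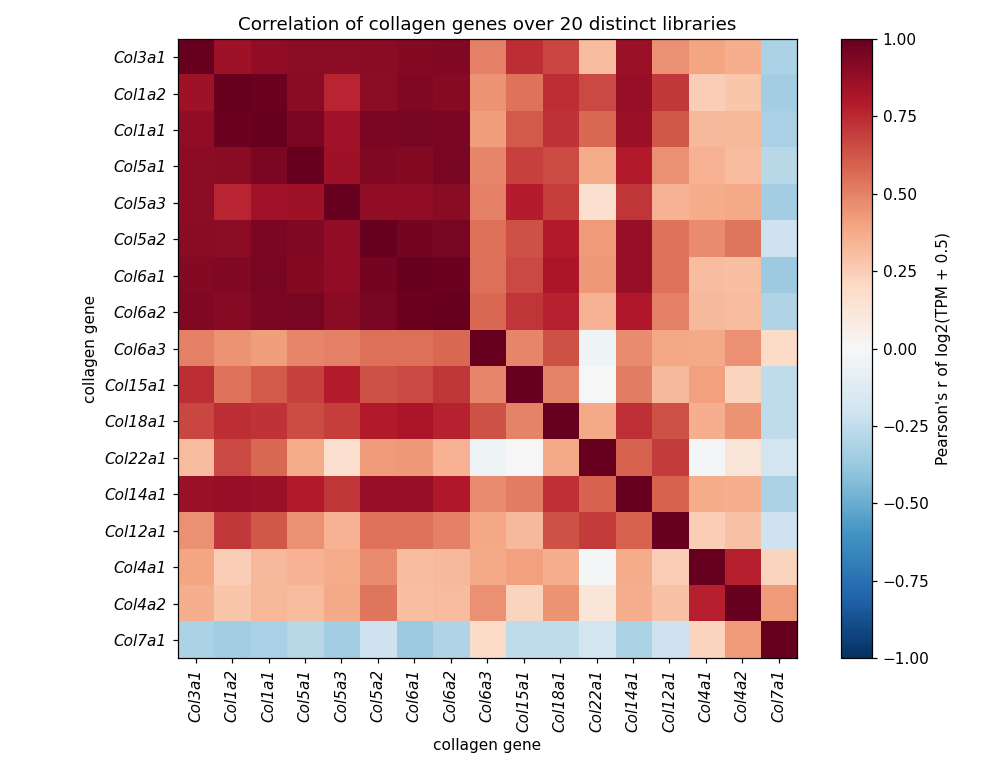
Pearson's r of log2(TPM + 0.5) over 20 distinct libraries for each pair of the 17 collagen genes, from -1 (blue) to 1 (red). The fibrillar genes, Col6a1 and Col6a2 form a dark red block, Col4a1 and Col4a2 pair at 0.780, and Col7a1 stands apart with a median r of -0.27.

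Some of these chains are neighbours in the genome. In the GRCm39 annotation, Col4a1 and Col4a2 lie head to head on chromosome 8 and overlap by 356 bases, and their reads in that overlap cannot be told apart by a kit that does not mark strand. Col6a2 and Col6a1 lie on the same strand of chromosome 10 with 83890 bases between them. Col3a1 and Col5a2 lie tail to tail on chromosome 1 with 16713 bases between them (r = 0.906). The span of Col18a1, introns included, overlaps that of Slc19a1, a folate transporter gene on the opposite strand, by 8825 bases. Other collagens overlap noncoding genes, as Col14a1 does Gm52209 by 70913 bases. Whether exons are shared in these overlaps was not examined, so any effect on the values is unknown.

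Among the tested collagen synthesis and processing genes, Serpinh1 and P4ha1 were the only ones called in any comparison. Of 18 tested synthesis and processing genes, 2 were called higher and 0 lower in untrained 0 h, trained 0 h and untrained 6 h muscle, the same 2 each time. Over all tested genes, 3.59%, 3.74% and 4.42% were called in these comparisons. Serpinh1, the collagen chaperone HSP47, averaged 18.6 ± 2.60 TPM in sedentary muscle, 51.1 ± 9.74 in untrained 0 h, 46.0 ± 14.4 in trained 0 h and 39.7 ± 11.5 in untrained 6 h muscle (SD, n = 3). Its log2 fold changes there were 1.43, 1.25 and 1.05 (adjusted p = 0.000803, 0.00247 and 0.00821). P4ha1, a subunit of the prolyl hydroxylase that stabilises the helix, averaged 8.44 ± 0.338 TPM in sedentary muscle and 14.8 to 15.5 TPM in those groups, with log2 fold changes of 0.84, 0.80 and 0.75. In trained 6 h muscle 0 of the 18 were called, and Serpinh1 averaged 12.5 ± 1.30 TPM. Serpinh1 was the only one of the 18 called between trained and untrained muscle at 6 h, lower by a log2 difference of -1.60 (SE 0.230, adjusted p = 0.000789). None of the 18 was called in the other 4 comparisons.

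Among 4 tested cross-linking genes, Loxl2 was called lower in trained 6 h against sedentary muscle (1.29 ± 0.169 against 2.48 ± 0.140 TPM, log2 fold change -0.74, adjusted p = 0.00500), and Loxl1 was called lower in trained than in untrained 6 h muscle (-0.71, adjusted p = 0.00866). Of 8 tested genes for collagen breakdown and its inhibitors, Timp4, an inhibitor of matrix metalloproteinases, was called higher at 6 h in untrained (1.32, adjusted p = 0.0109) and trained muscle (1.26, adjusted p = 0.0139). Timp3, of the same family, was called higher in untrained 6 h muscle (0.93, adjusted p = 3.91e-05). Of the proteases, Mmp15 was called lower in trained 6 h muscle (-0.70, adjusted p = 0.00165) and Mmp14 lower at 72 h in trained against untrained muscle (-0.61, adjusted p = 0.0384). None of 4 tested collagen receptor genes was called in any of the 9 comparisons. Of 11 tested other basement membrane genes, Nid2, a nidogen, was called lower in trained 6 h muscle (-0.67, adjusted p = 0.0406), and none was called elsewhere. Over all tested genes, 4.42% were called in untrained 6 h and 3.85% in trained 6 h against sedentary muscle. Between trained and untrained muscle, 2.01% were called at 6 h and 0.245% at 72 h.

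Of 11 tested genes of TGF-beta signalling and its early targets, 2 were called higher in untrained 0 h muscle, 3 in trained 0 h muscle and 2 in untrained 6 h muscle. The shares called over all tested genes were 3.59%, 3.74% and 4.42%, and 2.01% between trained and untrained muscle at 6 h. Ccn1, a matricellular early response gene, averaged 6.09 ± 2.98 TPM in sedentary, 50.8 ± 7.87 in untrained 0 h, 58.1 ± 1.76 in trained 0 h and 34.3 ± 11.1 TPM in untrained 6 h muscle (SD, n = 3). In trained 6 h muscle it averaged 7.99 ± 2.39 TPM, and 0 of the 11 genes were called against sedentary muscle. Between trained and untrained muscle at 6 h, 3 were called lower, which were Ccn1 (-2.03), Ccn2 (-1.02) and the ligand gene Tgfb2 (-0.76), with adjusted p of 0.000715, 0.0413 and 0.0459. None was called in either direction at 72 h or between trained and untrained muscle at 0 h.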

How the data were processed

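RNA was isolated from quadriceps muscle and sequenced paired-end from TruSeq RNA v2 libraries, a kit that does not mark strand. Per the labels, STAR 2.7.9 and salmon 1.5.0 were used with GRCm39, and the deposited TPM values were made by the authors per gene, which corrects for transcript length and scales each library to a common total. Whether counting used strand, and the annotation release, are not given in the sources used here. Depth cannot be recovered from TPM, so precision rests on the spread between 3 libraries a group.

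Testing was limited to genes that averaged 1 TPM or more (11819 of 53738). It was done on log2(TPM + 0.5) in limma 3.58.1 (R 4.3.3), with all 7 groups in the model, a variance trend and 14 residual degrees of freedom. These 14 count the shared 0 h library in both of its groups. A log2 fold change on this scale understates the change of low genes. P values were adjusted over all tested genes in each of 9 comparisons (Benjamini-Hochberg). Calls needed both an adjusted p under 0.05 and a fold of at least 1.5, that is 0.585 on the log2 scale. The collagen genes, the pathway lists and the marker lists were chosen with earlier results of these data known.

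Values in every library are given for collagens called in any comparison and for the defining chains of each subfamily, and up to 4 called genes of each other list are named. 1 gene of the TGF-beta list is not reported here. Col6a6, Col16a1 and single marker genes were named after their values were seen. Alternatives changed the pseudocount, the filter, the scaling, the samples in the model, the replicate block, the fold threshold, the shared 0 h library and each library in turn. Positions are from the GENCODE vM39 annotation of GRCm39, and promoter windows from RefSeq (GRCm38.p6), placed on GRCm39 by exact match. Plots were made in matplotlib 3.10.9 (Python 3.11.15).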

Additional observations from a re-analysis of the deposited data

Results flagged for a closer look

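In the direct test of trained against untrained muscle after a run to exhaustion, 1 of 17 collagens was called at 6 h and 1 at 72 h. Over all tested genes, 2.01% were called at 6 h and 0.245% at 72 h. At 6 h this was Col5a1, with a log2 difference of -0.60 (trained minus untrained, limma, adjusted p = 0.0430), and it was lower in 2 of 3 trained libraries than in every untrained library. At 72 h this was Col5a3, with a log2 difference of -1.05 (adjusted p = 0.0143), and it was lower in 3 of 3 trained libraries. Of 15 alternatives in which each gene was tested, 11 lost the Col5a1 call, with adjusted p up to 0.351, and 5 lost the Col5a3 call, with adjusted p up to 0.111.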

How the results depend on the processing

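No log2 fold change of a called collagen changed sign under any alternative. For trained 6 h against sedentary muscle the 7 calls became 4 with a minimum of 5 TPM, which leaves Col5a1, Col5a3 and Col15a1 untested. They became 3 when the model held only the 2 groups, and 5 with a pseudocount of 1 or without the filter. Without the shared 0 h library, and likewise with the replicate block, 6 were called. The count ranged from 4 to 8 with 1 library left out. Col5a3, Col6a1 and Col6a2 were called under every alternative in which they were tested, whereas Col1a1 lost its call in 10 of 16, with adjusted p from 0.0315 to 0.169, Col3a1 in 5 of 16, Col5a1 in 4 of 15 and Col15a1 in 1 of 15. The single call in untrained 6 h muscle became 0 with a minimum of 5 TPM and with only the groups compared, and 1 to 2 with 1 library left out. The single call between trained and untrained muscle at 6 h became 0 with a pseudocount of 1, with the minimum of 5 TPM, under both other scalings, without the shared 0 h library and with only the groups compared, and 0 to 5 with 1 library left out. The single call between them at 72 h became 0 with the minimum of 5 TPM and with only the groups compared, and 0 to 1 with 1 library left out. For trained 72 h against sedentary muscle the count was 0 to 1 with 1 library left out. The cause was not tested. Where leaving out a library left 2 in its group, the spread was still pooled over all groups.

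Replicate numbers are shared across groups in the labels. Deviations of same-numbered libraries correlated with r as low as -0.07, and exceeded 0.1 in every pair only at 0 h between trained and untrained muscle (0.69, 0.13 and 0.13), where replicate 1 is the shared library, so the numbers were not taken as pairing. With the replicate block, trained against untrained muscle at 6 h went from 1 call to 0, and the counts of the other 8 comparisons stayed within 1.5 times. TPM keeps no depth, so values of the 27 collagens below 1 TPM carry no known counting error.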
